A study of Mus musculus with 4 samples.

Results

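The genes described here encode the proteins of the cytosolic ribosome, read as accessible chromatin at their promoters in muscle stem cells. A member is a region of the deposited table whose linked gene is protein-coding and has a ribosomal protein symbol, Rpl, Rps or Rplp followed by a number and at most a letter and a further number. This gave 65 regions with 64 gene names among 35019 regions in all, and 63 of the 65 have their centre within 1000 bases of the deposited gene start. These 63 are called promoter regions below: 37 belong to large-subunit proteins, 23 to small-subunit proteins and 3 to the stalk. ATAC-seq, in which the Tn5 transposase cuts open DNA, was run on quiescent satellite cells isolated by FACS. The groups are mdx mice, a model of Duchenne muscular dystrophy without working dystrophin, and wild type mice, with 2 libraries of each. The design text speaks of 3 mice per condition. Whether a library is 1 animal or a pool, and the age, sex and strain of the mice, is not stated in the labels. The p-values therefore set the difference between the groups against the variation between these libraries, and that variation could be purely technical.

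A ribosome carries a single copy of most of its proteins, and cells make these proteins in step with ribosomal RNA. Their messenger RNAs typically start with a C followed by an unbroken run of pyrimidines, the TOP sequence, through which the mTOR pathway and the protein Larp1 control their translation. Quiescent satellite cells are small cells with little protein synthesis, and ribosome production is known to increase when they activate.

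The start of the transcript carries the feature by which this family is best known. RefSeq promoter windows (GRCm38.p6, 250 bases before to 50 after a start) whose start lies inside the linked region were found for 49 of the 63 promoter regions. In 17 of the 49 windows (34.7%) the first transcribed base is C, against 14.8% of 6717 linked promoters treated the same way. A run of at least 8 C or T bases, on the coding strand between 10 bases before and 25 after the start, was present in 16 of 49 (32.7%) against 12.0%. Both together occurred in 8 members (16.3%), 3.2% of linked promoters and 3.3% of all 32851 windows. The 8 are printed from 10 bases before the start to 20 from the start onward, with the pyrimidine runs in capitals and in order of accessibility per kb, because they show the TOP-type start within an accessible region. They were chosen after their values were seen.
Rps6 (chr4:86857348-86857377, minus strand): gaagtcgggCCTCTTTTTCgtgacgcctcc
Rpl35 (chr2:39005112-39005141, minus strand): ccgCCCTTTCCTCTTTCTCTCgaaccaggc
Rpl14 (chr9:120571507-120571536, plus strand): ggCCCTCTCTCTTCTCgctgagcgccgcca
Rpl28 (chr7:4792955-4792984, plus strand): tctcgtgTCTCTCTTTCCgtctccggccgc
Rps15a (chr7:118116128-118116157, minus strand): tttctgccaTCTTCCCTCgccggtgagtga
Rplp2 (chr7:141447641-141447670, plus strand): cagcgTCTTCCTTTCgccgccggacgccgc
Rps18 (chr17:33955646-33955675, minus strand): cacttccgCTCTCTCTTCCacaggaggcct
Rpl38 (chr11:114668570-114668599, plus strand): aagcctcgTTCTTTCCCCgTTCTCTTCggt

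A run spans the annotated start in all 8, and in Rpl38 a second run follows. RefSeq and deposited starts differ, by 45 bases for Rps6, 281 for Rplp2 and 493 for Rpl35, so the position of the true start is uncertain by such distances. Over the 49 members the median distance between both starts is 22.0 bases, and 34 lie within 50 bases.

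Longer windows, from 150 bases before the start to 20 from it onward, are printed for the promoter with the highest level (Rpl37), the lowest fold change (Rpl19), the highest fold change (Rps9) and a promoter with several motifs (Rpl27a). Capitals mark matches on either strand to the motifs described next and pyrimidine runs near the start.
Rpl37 (chr15:5116463-5116632, plus strand): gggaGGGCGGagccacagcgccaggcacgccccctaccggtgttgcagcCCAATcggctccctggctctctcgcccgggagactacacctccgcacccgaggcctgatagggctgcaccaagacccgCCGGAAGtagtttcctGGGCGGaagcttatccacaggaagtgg
Rpl19 (chr11:98026560-98026729, plus strand): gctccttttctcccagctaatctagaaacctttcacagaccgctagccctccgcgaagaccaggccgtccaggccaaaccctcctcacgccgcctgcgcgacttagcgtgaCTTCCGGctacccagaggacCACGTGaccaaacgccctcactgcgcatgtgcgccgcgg
Rps9 (chr7:3703891-3704060, plus strand): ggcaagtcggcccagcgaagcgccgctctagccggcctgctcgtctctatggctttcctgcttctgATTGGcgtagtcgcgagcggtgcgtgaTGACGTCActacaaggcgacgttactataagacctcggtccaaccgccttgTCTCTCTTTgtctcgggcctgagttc
Rpl27a (chr7:109519045-109519214, plus strand): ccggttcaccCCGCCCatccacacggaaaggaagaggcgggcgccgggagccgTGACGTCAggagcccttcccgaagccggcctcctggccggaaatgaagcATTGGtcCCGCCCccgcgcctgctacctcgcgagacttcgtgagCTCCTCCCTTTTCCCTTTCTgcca

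Each motif was searched on both strands of the whole window, except where stated. None of these motifs contains another, although neighbouring matches can share bases. The ETS-type motif CCGGAAG, bound by factors such as Gabpa, was present in 19 of 49 members (38.8%), against 20.0% of linked promoters and 8.9% of all windows. The GC box, with the letters GGGCGG, was present in 29 (59.2%), against 73.8% and 35.7%. The CCAAT box was found in 16 members (32.7%, against 40.5% and 37.4%). The letters AAGATGG of a YY1-type site were found in 6 (12.2%, against 7.4% and 6.3%), and the TATA box, searched as TATAAA, was also found in 6 (12.2%, against 5.4% and 13.6%). An E-box, CACGTG, occurred in 4 members (8.2%, against 11.0% and 7.2%). A cyclic AMP response element, TGACGTCA, also occurred in 4 (8.2%, against 4.2% and 1.8%). The pyrimidine word CTTTCC was searched near the start on the coding strand only and can lie within a pyrimidine run. It was present in 3 members (6.1%, against 1.4% and 1.5%), and the NRF1-type palindrome in 1 (2.0%, against 2.4% and 1.0%). In Rpl37 the ETS-type match begins 23 bases before the start and a GC box 7 bases before it. In Rpl19 an ETS-type match on the opposite strand begins 39 bases before the start and an E-box 19 bases before it. Member windows held a median of 57.0% G and C (44.3% to 67.3%), against 62.7% in linked promoters, and a median of 21.0 CpG dinucleotides against 23.0. Members with the ETS-type motif had a median level of 193.7 scaled reads per kb and those without it 216.3. Their median log2 fold changes were -0.09 and -0.20. For the GC box the order was the other way, with median levels of 243.4 with it and 181.0 without it. The median log2 fold changes were then -0.20 and -0.07. These splits are given as a description only.

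The accessible regions lay over the gene starts. Of the 63 promoter regions, 61 cover the deposited start, with a median of 208.0 bases upstream and 276.0 downstream. Widths ran from 119 bases at Rpl7l1 to 1850 at Rpl7, with a median of 525.0 bases against 524.0 for all 11236 promoter regions. The Rpl18 region ends 64 bases before the deposited start. The Rpl35 region begins downstream of its deposited start, but holds the RefSeq start. In 9 promoter regions a RefSeq start of another gene on the opposite strand lies inside: Iqcg with Rpl35a, Lias with Rpl9, Sphk2 with Rpl18, Vps52 with Rps18, Ndufa7 with Rps28, Snhg9 with Rps2, 9430083M05Rik with Rpl22, Gm10589 with Rps13 and Gm32950 with Rpl22l1. Accessibility there cannot be assigned to either gene. In the Rpl18 region only the Sphk2 start lies inside, since the deposited and RefSeq starts of Rpl18 lie outside it. RefSeq windows were not available for every gene, so 9 is the least number of such regions.

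**Figure D1:**
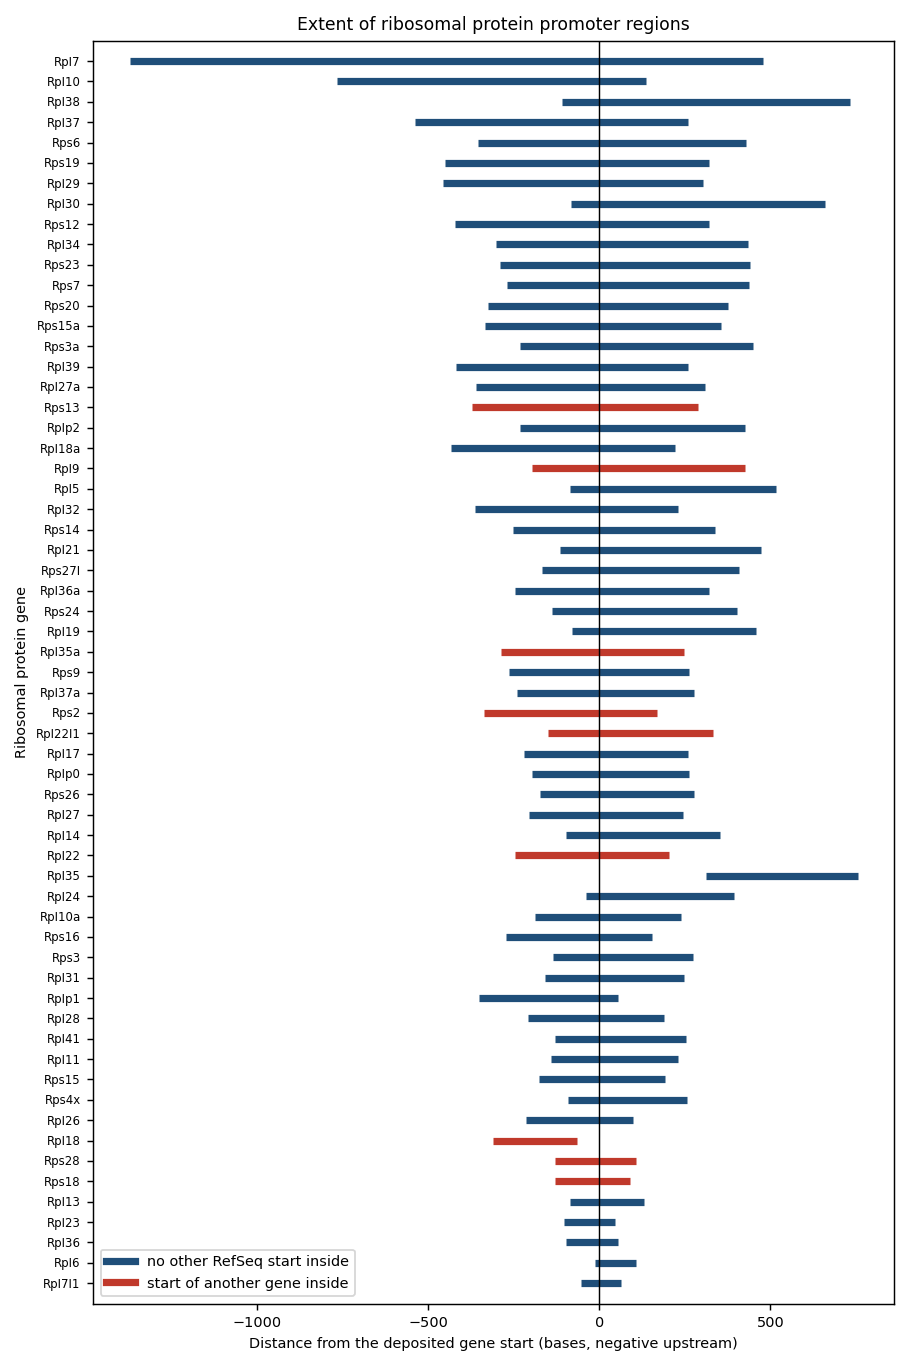
Extent of 61 of the 63 ribosomal protein promoter regions (vertical axis, 1 bar each) in bases from the deposited gene start (horizontal axis, negative upstream). Red bars mark regions that also hold the start of another gene among the RefSeq windows available. All bars except those of Rpl18 and Rpl35 cross the start, and Rpl7 has the widest region, at 1850 bases.

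RefSeq lists 83 protein-coding genes with a matching symbol, and 64 of them have a linked region, with Rps3a matched to RefSeq's Rps3a1. The 19 with 0 linked regions include the large-subunit genes Rpl3, Rpl4, Rpl8 and Rpl15, the small-subunit gene Rps27a, and the tissue-restricted paralogues Rpl3l, Rpl10l and Rpl39l. RefSeq windows were available for 12 of the 19 only. For 4 of these 12 the RefSeq start lies inside a region that the table links to the divergent neighbour. The region of Rpl12 is linked to Lrsam1 (33 and 26 scaled reads in mdx against 21 and 36 in wild type), that of Rpl7a to Med22 (55 and 79, 68 and 69), that of Rps25 to Trappc4 (70 and 114, 136 and 97) and that of Rps27 to Rab13 (66 and 64, 76 and 56). In these 4 regions the groups overlapped, with log2 fold changes from -0.36 to 0.09. The list of members is therefore short of some ribosomal protein promoters that are open in these cells.

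Values are reads per region that the authors scaled by 1 factor per library and rounded. Between 3208479 and 8164388 reads fell in the listed regions, with wild type replicate 2 the deepest, and a member promoter held between 0 and 2493 of them in a library, with a median of 102.0. Mitochondrial regions held 13.72% to 17.74% of the reads in mdx and 9.31% to 14.05% in wild type. Promoter regions were listed for 7 of 11 satellite cell marker genes, among them Myf5 and Cd34, with summed levels of 997 and 1076 in mdx and 1264 and 1197 in wild type. The 6 blood and 3 Schwann cell markers had 0 promoter regions listed, and of the 4 muscle fibre markers only Myh1 had one (87 and 110 in mdx, 44 and 73 in wild type). Of the 5 endothelial markers only Tek had one (152 and 131 in mdx, 131 and 146 in wild type). Of 6 fibro-adipogenic markers 3 were listed, with summed levels of 196 and 215 in mdx and 107 and 133 in wild type, and their part in the results below was not tested.

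Although ribosomal protein messenger RNAs are among the most abundant of a cell, their promoters as a group were not more accessible than promoters at large. Levels are compared here per length, as scaled reads per kb of region, averaged over the 4 libraries. The 63 member promoters had a median of 205.7 per kb (quartiles 139.3 and 331.4), close to the 216.1 of all promoter regions (132.2 and 368.7). Of the 63, 29 lay above the median of all promoters, 13 above its upper quartile and 14 below its lower quartile. Region widths were set by the authors' peak calls, and a level per kb depends on them.

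The promoter of Rpl37, a zinc-binding large-subunit protein, stood apart at the top. It lies on chromosome 15 from 5116076 to 5116873 and had 1242.2 and 1245.9 scaled reads per kb in mdx against 1782.9 and 1539.5 in wild type. Only 0.3% of all promoter regions had a higher level. The next was Rps23, a protein of the decoding centre, with 609.3 and 594.3 per kb in mdx and 706.3 and 679.0 in wild type. All 4 values of Rpl37 lie above all 4 of Rps23. Rpl34 followed (389.6 and 566.8 in mdx, 692.1 and 558.6 in wild type). Rps20 (619.1 and 485.0, then 532.1 and 564.9) and Rps6, the substrate of S6 kinase (493.6 and 496.2, then 562.5 and 515.3), came next. The values of Rps23 overlapped those of Rpl34 and Rps20, and those of Rpl34, Rps20 and Rps6 overlapped one another, so the order of these 4 is not resolved, except that all values of Rps23 lie above those of Rps6.

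The lowest level was that of Rpl6, on chromosome 5 from 121204470 to 121204590, with 4 and 0 scaled reads in mdx against 6 and 10 in wild type. It was the only member promoter left untested, since testing required 2 libraries with a value of 10 or more. Above it were Rpl19 with a mean of 84.4 per kb, the paralogue Rpl7l1 with 86.1, Rpl13 with 91.9 and Rpl10a with 93.7. Their values overlapped across libraries. Mean levels per kb thus ran from 41.7 for Rpl6 to 1452.6 for Rpl37.

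**Figure D2:**
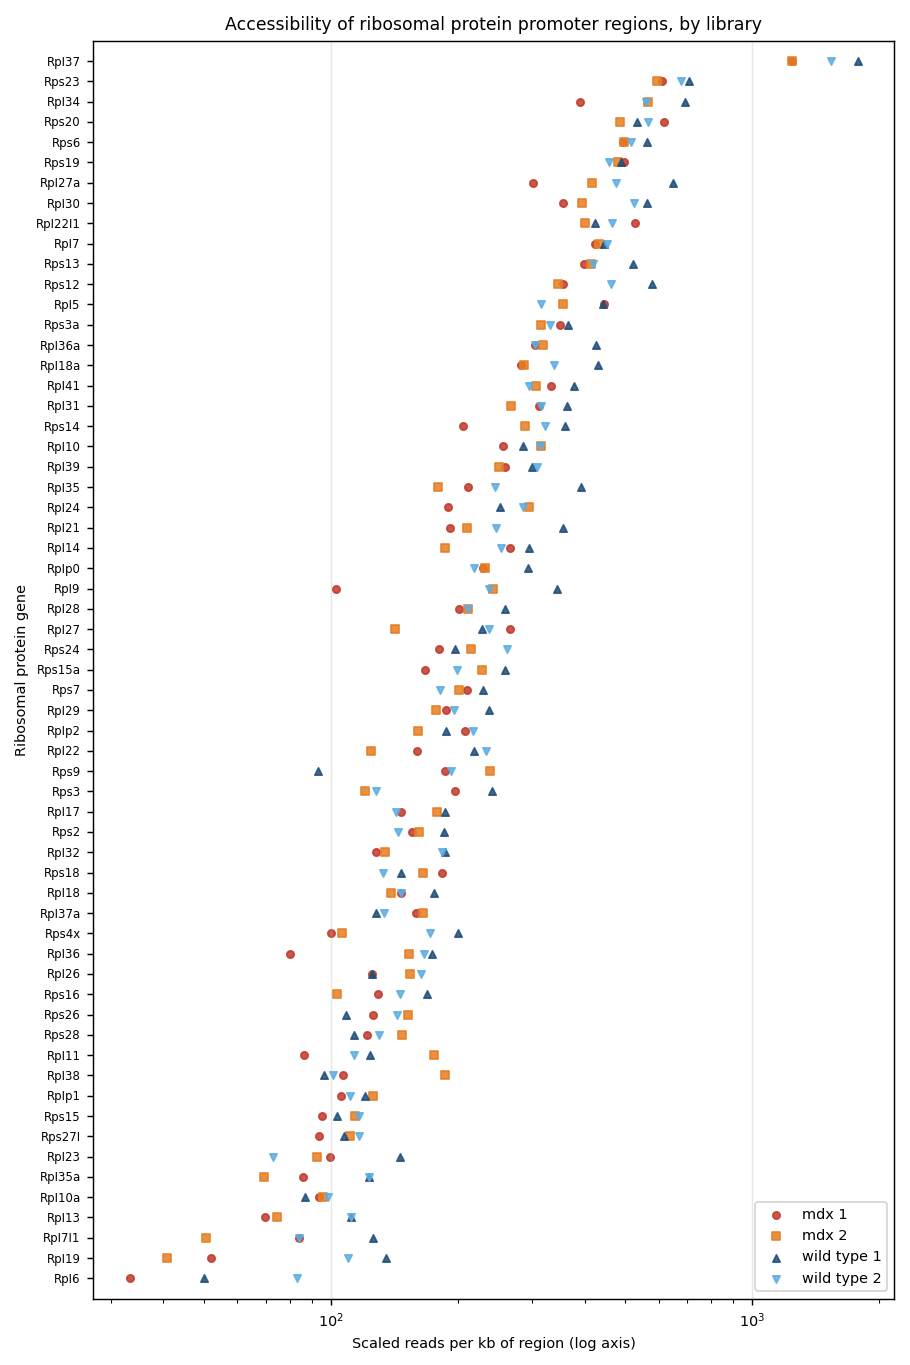
Scaled reads per kb of region (horizontal log axis) for 61 of the 63 ribosomal protein promoter regions (vertical axis, sorted by mean), with 1 point per library; the value of 0 for Rpl6 in mdx replicate 2 is not drawn. The 4 libraries keep close together for most genes, and Rpl37 lies above the rest in every library.

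No ribosomal protein promoter differed between mdx and wild type past the threshold. Of 62 tested member promoters, 0 were higher and 0 lower at an adjusted p under 0.05 (limma on log2(value + 1), Benjamini-Hochberg over 33161 regions), against 2.40% of all 11030 tested promoter regions (0.662% higher, 1.74% lower) and 4.18% of all tested regions (3.30% higher, 0.881% lower). With voom on recovered reads the counts were also 0 and 0, against 0.979% higher and 2.87% lower of all tested promoters. At an unadjusted p under 0.05 (limma), 11 were lower and 0 higher, 11 of 62 against 17.9% of all tested promoters for lower and 2.96% for higher. Over all tested regions these shares were 9.15% and 13.8%. The median log2 fold change (mdx over wild type) was -0.18, against -0.25 for all tested promoters and -0.01 for all tested regions. It lay below 0 in 49 of 62 members (79.0%) and in 75.0% of all tested promoters. With promoter medians set equal between libraries the members' median was 0.02, and with distal medians set equal it was -0.52. The same scalings moved the median of all promoters to -0.05 and -0.58. With distal medians set equal 14 members passed as lower (22.6% of 62), against 21.6% of all tested promoters. Among them were Rpl9, Rpl21, Rpl22, Rpl27a, Rpl30, Rpl35, Rps4x, Rps12 and Rps14, described below by their values without that scaling. Rpl34 was also among them. Without that scaling it held 286 and 416 scaled reads in mdx against 508 and 410 in wild type. The groups overlapped (log2 fold change -0.40, limma adjusted p = 0.276).

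Both mdx libraries lay below both wild type libraries at 24 of 62 member promoters, against 43.8% of all tested promoters, and above them at 3, against 10.1%. Over all tested regions the shares were 25.9% below and 26.8% above. The groups overlapped at the other 35. The median absolute log2 fold change, a difference between means of 2 libraries, was 0.21. The median absolute difference between the single libraries of a group was 0.24 in mdx and 0.21 in wild type. Means of 2 libraries vary less than single libraries, so these values are not directly comparable. The 95% interval of the difference lay within a 2-fold change in either direction for 41 of the 62 (66.1%, against 55.6% of all tested promoters). For the other 21 a change of 2-fold or more in at least 1 direction lay inside the interval. Interval widths ran from 0.60 to 2.86 on the log2 scale.

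**Figure D3:**
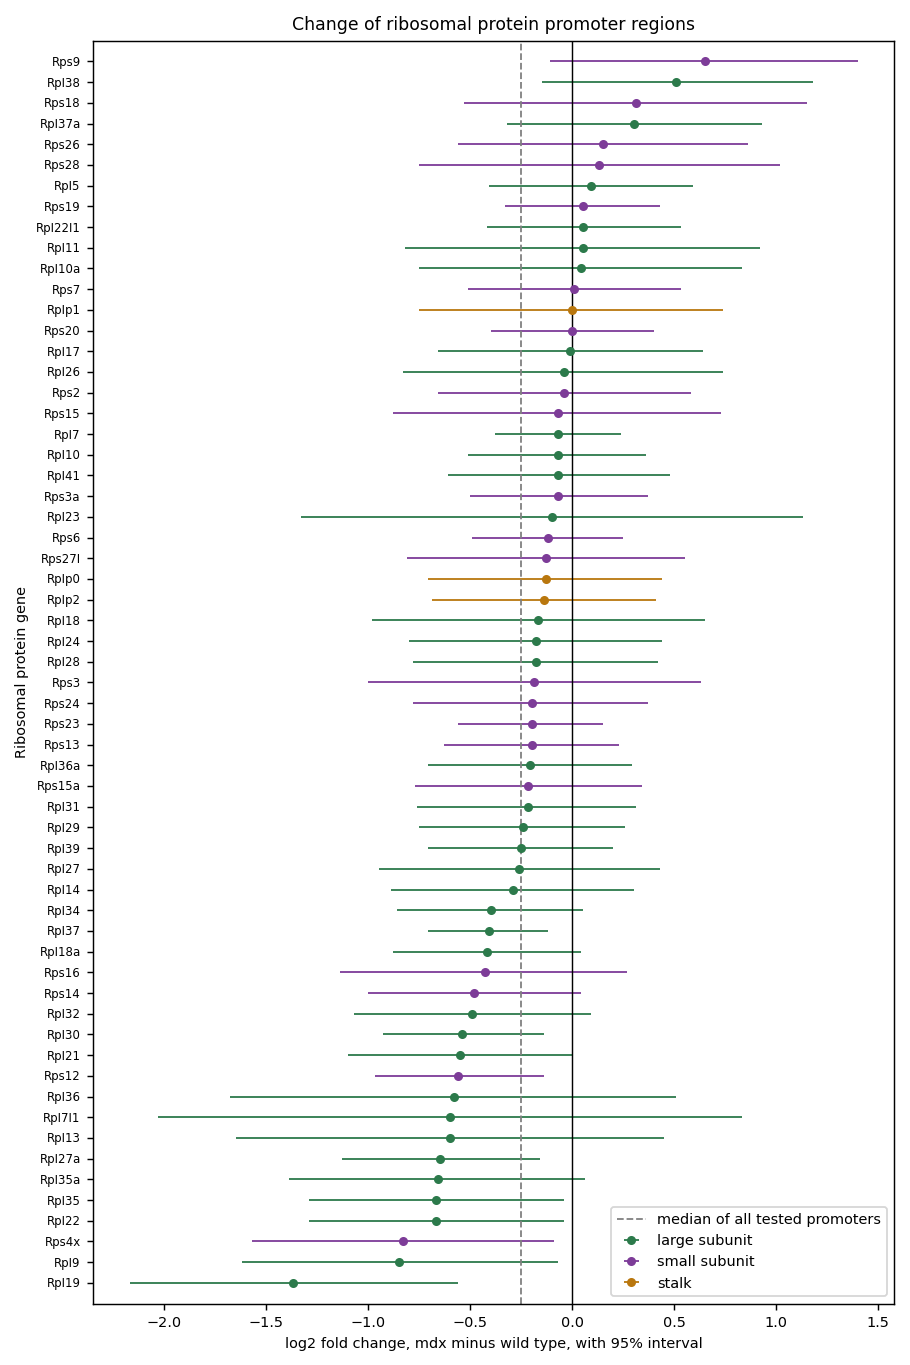
Difference of mdx from wild type on the log2 scale (horizontal axis) and its 95% interval from limma for 60 of the 62 tested ribosomal protein promoters (vertical axis), coloured by subunit, with a dashed line at the median of all tested promoters. Most intervals include 0, and Rpl19 and Rps9 mark the ends at -1.37 and 0.65.

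Shares of recovered reads do not depend on the scaling factors. Of the nuclear reads, member promoters took 0.259% and 0.268% in the mdx libraries against 0.306% and 0.291% in the wild type ones, so that the groups did not overlap. All promoter regions together took 51.1% and 55.4% in mdx, and 62.7% and 59.6% in wild type, a difference of the same direction. As a share of promoter reads, member promoters held 0.506% and 0.483% in mdx and 0.488% and 0.489% in wild type, and the groups overlapped. The share of all promoters thus moved with that of the members, and its part in the members' values was not tested.

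**Figure D4:**
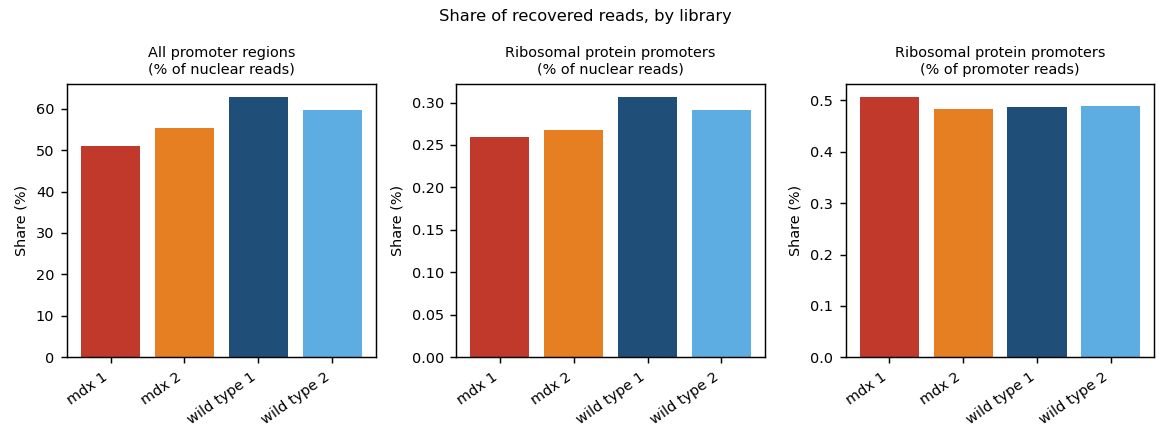
Recovered reads by library, as bars from 0: all promoter regions in percent of nuclear reads (left), ribosomal protein promoters in percent of nuclear reads (middle) and in percent of promoter reads (right). The left and middle panels are lower in both mdx libraries, and the right panel is nearly level, between 0.483% and 0.506%.

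**Figure D5:**
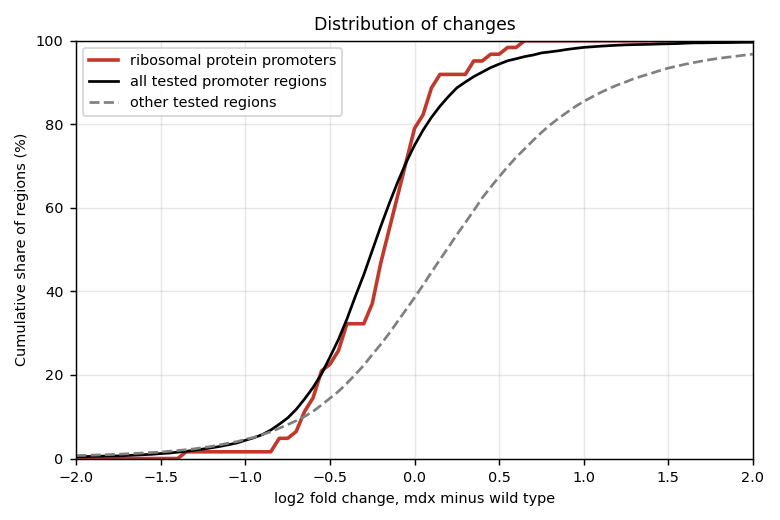
Cumulative share of regions (vertical axis, percent) against the log2 difference of mdx from wild type (horizontal axis) for member promoters, all tested promoters and other tested regions. The member curve runs near that of all promoters, with 79.0% against 75.0% below 0.

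Among large-subunit genes, 36 promoters were tested, with a median log2 fold change of -0.25, and 30 lay below 0. The promoter of Rpl19 came nearest to the threshold. It lies on chromosome 11 from 98026630 to 98027169 and held 28 and 22 scaled reads in mdx against 73 and 59 in wild type. Both mdx values are less than both wild type values. The log2 fold change was -1.37 with SE 0.37, a 2.58-fold lower level, and the adjusted p of 0.0577 (limma) missed the threshold. It passed in limma fits with the replicate number as a block (adjusted p = 0.0315), after cyclic loess (adjusted p = 0.0205), with the numbers crossed, an alternative chosen after seeing the data (adjusted p = 0.0107), and with distal medians set equal (adjusted p = 0.00632). It did not pass with promoter medians set equal (-1.16, limma adjusted p = 0.0962) or without the filter on low values (limma adjusted p = 0.091). Equal totals over nuclear regions, voom and a pseudocount of 5 gave limma adjusted p values from 0.051 to 0.0567. With a mean of 45.5 scaled reads, Rpl19 was left out where a mean value of at least 50 was required. Without 1 library in turn, its log2 fold change ran from -1.53 to -1.2. The Rpl19 value rests on few reads, 20 and 19 in mdx against 60 and 120 in wild type. This was the lowest tested member promoter per kb.

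Rpl9 had 64 and 151 scaled reads in mdx against 214 and 148 in wild type, and shares its region with the start of Lias. The groups overlapped, and the mdx libraries differed over 2-fold (log2 fold change -0.85, SE 0.36, limma adjusted p = 0.179). Rpl22 had 72 and 56 in mdx and 98 and 105 in wild type, with no overlap (-0.67, SE 0.29, limma adjusted p = 0.191). Its paralogue Rpl22l1 had 254 and 193 in mdx and 204 and 223 in wild type, with overlap and a log2 fold change of 0.05 (95% interval -0.42 to 0.53).

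Rpl37, the most accessible member, held 990 and 993 scaled reads in mdx against 1421 and 1227 in wild type. The groups did not overlap, and the log2 fold change of -0.41 with SE 0.14 had an interval from -0.71 to -0.12 before correction (limma, adjusted p = 0.101). After cyclic loess it was -0.07 (limma, adjusted p = 0.765), and with distal medians set equal -0.75 and past the threshold (limma, adjusted p = 0.0221). A further 4 large-subunit promoters were lower in both mdx libraries with an unadjusted p under 0.05, and were singled out after their values were seen. Rpl27a held 202 and 278 against 434 and 318, Rpl30 264 and 293 against 418 and 391, Rpl35 94 and 80 against 175 and 109, and Rpl21 113 and 124 against 209 and 145. Their log2 fold changes were -0.65, -0.54, -0.67 and -0.55 (limma, adjusted p = 0.115, 0.105, 0.192 and 0.216). Rpl27a passed where only regions with a mean value of at least 50 were tested (limma, adjusted p = 0.0459).

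Higher values in mdx were fewer. Rpl38, whose loss in mice alters Hox messenger RNA translation and skeletal patterning, had 90 and 157 scaled reads in mdx against 81 and 85 in wild type. The groups did not overlap, but 1 mdx library carried most of the difference (log2 fold change 0.51, SE 0.30, limma adjusted p = 0.34). Rpl37a had 82 and 85 against 66 and 69, also without overlap (0.30, SE 0.29, limma adjusted p = 0.565, and -0.03 with distal medians set equal). Rpl5 and Rpl11, which bind Mdm2 when ribosome assembly fails, showed overlap: 267 and 214 against 266 and 190 for Rpl5, and 32 and 65 against 46 and 42 for Rpl11. Their log2 fold changes were 0.09 (interval -0.41 to 0.59) and 0.05 (interval -0.82 to 0.92).

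Among small-subunit genes, 23 promoters were tested, with a median log2 fold change of -0.12, and 16 lay below 0. The difference between the subunits' medians is a description and was not tested. Rps12 was chosen after its values were seen, with 264 and 257 scaled reads in mdx against 428 and 343 in wild type, with no overlap (log2 fold change -0.56, SE 0.19, limma adjusted p = 0.114). Rps14, whose loss is known from a human myelodysplastic syndrome, had 122 and 171 against 213 and 191, with no overlap (-0.48, SE 0.24, limma adjusted p = 0.258). At both promoters the mdx libraries were below the wild type libraries.

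Rps9 had the highest fold change of all members, with 98 and 125 scaled reads in mdx against 49 and 101 in wild type. The groups overlapped, and the wild type libraries differed over 2-fold (log2 fold change 0.65, SE 0.35, limma adjusted p = 0.29). Rps18, whose region also holds the start of Vps52, had 40 and 36 against 32 and 29, without overlap (0.31, SE 0.39, limma adjusted p = 0.675, and -0.03 with distal medians set equal). Rps19, the gene most often mutated in Diamond-Blackfan anaemia, was level at 384 and 371 against 377 and 352 (0.05, interval -0.33 to 0.43). Rps6 held 387 and 389 against 441 and 404 (-0.12, interval -0.49 to 0.25), Rps23 446 and 435 against 517 and 497 (-0.20, interval -0.56 to 0.15), and Rps20 434 and 340 against 373 and 396 (interval -0.40 to 0.40). These 4 intervals lie below a 1.5-fold increase.

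The stalk proteins Rplp0, Rplp1 and Rplp2, which recruit elongation factors to the ribosome, had overlapping groups throughout. Rplp0 held 105 and 106 scaled reads in mdx against 134 and 100 in wild type, Rplp1 43 and 51 against 49 and 45, and Rplp2 137 and 106 against 123 and 143. Their 95% intervals lay within 2-fold.

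On the X chromosome, 4 members had promoter regions. Rps4x had 35 and 37 scaled reads in mdx against 70 and 60 in wild type, with no overlap (log2 fold change -0.83, SE 0.34, limma adjusted p = 0.17). Rpl39, a protein of the nascent peptide tunnel, had 176 and 170 against 204 and 209, also with no overlap (-0.25, limma adjusted p = 0.507). Rpl10, which joins the large subunit late in assembly, had 232 and 285 against 258 and 284, and Rpl36a had 173 and 181 against 242 and 173. Both overlapped, at -0.07 and -0.21 (limma, adjusted p = 0.865 and 0.629).

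Of the paralogues in the family, Rps27l had 54 and 64 scaled reads in mdx against 62 and 67 (-0.13 on the log2 scale, limma adjusted p = 0.843). Rpl7l1 was near the limit for testing, at 10 and 6 against 15 and 10 (-0.60, interval -2.03 to 0.83). Both overlapped. Outside the promoter window, the Rps10 region was near that limit, at 4 and 12 against 7 and 12. Its centre lies 1341 bases from the deposited start, but it covers the RefSeq start. The start of Gm15420 on the opposite strand also lies inside, so accessibility there cannot be assigned to either gene. The second Rpl41 region, on chromosome 14, belongs to a different gene identifier of the same name and lies 3778 bases from that gene (33 and 36 against 18 and 33). The Rpl41 promoter on chromosome 10 held 127 and 117 against 144 and 113. Ribosomal protein genes have many processed copies in the genome, and the labels do not state how reads with several matches were placed.

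The ribosomal protein genes Rpsa, Fau and Rpl36al have names outside the pattern and are not counted as members. Rpsa had 135 and 129 scaled reads in mdx against 158 and 173, without overlap (-0.32 on the log2 scale, limma adjusted p = 0.43). The region linked by name to Fau lies 4795 bases from a gene start on chromosome 16 and is no promoter region (54 and 62 against 100 and 49). Whether that start belongs to the ribosomal protein gene was not checked. The start of Rpl36al lies in a region linked to Mgat2, with 279 and 264 against 404 and 396 (-0.56, limma adjusted p = 0.093).

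In 5 lists of related genes of protein synthesis, 0 promoters passed the threshold (limma), against 2.40% of all tested promoters, of which 75.0% had a fold change below 0. Elongation factors and other genes known to give TOP messenger RNAs had 21 tested promoters with a median log2 fold change of -0.25, and 19 lay below 0. The lowest were Eif3k, an initiation factor subunit (33 and 48 scaled reads in mdx against 125 and 63 in wild type, -1.14), and Pabpc1, the poly(A)-binding protein (427 and 600 against 851 and 765, -0.67, limma adjusted p = 0.0573). Assembly factors and RNA polymerase I had 39 tested promoters with a median of -0.29 and 35 below 0, among them Nolc1, a nucleolar phosphoprotein (30 and 33 against 76 and 68, -1.17, limma adjusted p = 0.0718). Mitochondrial ribosomal proteins had 51 with a median of -0.25 and 36 below 0, and cytosolic aminoacyl-tRNA synthetases 20 with -0.21 and 14 below 0. Their lowest were Mrps2 (-1.62) and Gars (-0.86). The highest of the lists so far, in order, were Naca (0.26), Mybbp1a (0.49), Mrpl22 (0.89) and Hars (0.3). Their limma adjusted p values were 0.53, 0.427, 0.322 and 0.602. Factors named as regulators of ribosomal protein or ribosomal RNA genes, or of TOP messenger RNAs, had 19 tested regions, all 19 below 0, with a median of -0.44. The lowest were Akt1, a kinase upstream of mTOR (14 and 59 against 84 and 70, -1.37, limma adjusted p = 0.148), and Eif4ebp2, a translation repressor under mTOR (46 and 81 against 137 and 137, -1.15, limma adjusted p = 0.057), both without overlap. The median of all tested promoters was -0.25. With promoter medians set equal the 5 medians were -0.05, -0.08, -0.05, -0.01 and -0.24, against -0.05 for all tested promoters. The last stayed the lowest.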

How the data were processed

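Accessible chromatin was measured by ATAC-seq in 4 libraries, 2 from mdx and 2 from wild type satellite cells. The submitters' processing notes name MACS2 2.1.0, Picard 2.9.0, STAR 2.5.3a, Trimmomatic 0.33, DESeq and DESeq2, and build mm10. What each tool did, how duplicates or the Tn5 offset were treated, and whether peak calling ran per library was not given in the sources used here. As deposited by the authors, the table holds 1 whole-number score per region and library, which the values show to be reads multiplied by a factor per library (1.382, 1.162, 1.222 and 0.492 in the order of mdx and wild type replicates) and rounded. Whole numbers up to 400 that never occur, 111, 56 and 73 of them, matched the first 3 factors with 0 mismatches. The reads of wild type replicate 2 are recovered only to about 1 read per value.

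Because the values are scaled, a count test was not used. The test was limma 3.58.1 (R 4.3.3, trended eBayes, two-sided) on log2(value + 1) with genotype alone in the model. Differences on that scale are smaller than the true ones where values are low. Testing required 2 libraries with a value of 10 or more, which left 33161 regions, with a Benjamini-Hochberg threshold of 0.05. Promoter sequences came from RefSeq (GRCm38.p6). The members, lists and tests were chosen with earlier results of these data known. Named genes are the 5 highest and lowest by fold change and by level per kb, a fixed set of names (stalk, X-linked, paralogues, Rps6, Rps19, Rpl5, Rpl11, Rps14), members off the promoter window, and the few stated as chosen after their values were seen. Some members are counted but not reported here by name, and 2 of them are not drawn. Figures were drawn with matplotlib 3.10.9.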

Additional observations from a re-analysis of the deposited data

How the results depend on the processing

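With 2 libraries per group the fits without 1 library leave a lone sample that is assumed to vary like the other group, and depth limits the members with few reads, such as Rpl6, Rpl7l1 and Rps10. The count of 0 higher members held under every alternative run. Lower members numbered 1 with cyclic loess (Rpl19), 1.61% of members against 2.86% of all tested promoters. They numbered 1 with a mean value of at least 50 (Rpl27a, 2.04% against 6.73%) and 1 with the replicate block (1.61% against 3.58%). With crossed pairing, chosen after seeing the data, 6 were lower (9.68% against 13.3%). With distal medians set equal 14 were lower (22.6% against 21.6%). In the other fits with all 4 libraries 0 were lower, against 0.311% to 2.87% of all tested promoters. The count was also 0 with a window of 500 bases and with another choice of members that leaves out the paralogues. The cause was not tested. The members' median log2 fold change was 0.02 with promoter medians set equal, -0.52 with distal medians set equal, and from -0.26 to -0.13 without 1 library.

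Over all regions 1095 were higher and 292 lower. These counts were 404 and 54 with no filter on low values, 2108 and 653 with the replicate block, 3394 and 2067 with crossed pairing, 1704 and 541 with cyclic loess, 1211 and 725 with a mean value of at least 50, 1871 and 156 with promoter medians set equal, 1546 and 448 with voom, 1474 and 485 with a pseudocount of 5, 1222 and 3465 with distal medians set equal, and 0 to 0 without 1 library, where fewer samples remain. The replicate numbers are shared by name only: the differences between replicates 1 and 2 correlated at -0.109 between the groups over 33161 regions. Among the members the block changed the call of Rpl19 alone.

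Signs of values near 0 turned as follows, none past the threshold. With promoter medians set equal they were 0.0 for Rps23, 0.07 for Rplp2, Rplp0 and Rps27l, 0.08 for Rps6, 0.13 for Rpl10, 0.14 for Rpl41 and 0.2 for Rplp1 and Rps20. With distal medians set equal they were -0.3 for Rpl10a, -0.29 for Rps19, -0.28 for Rpl22l1 and Rpl11, -0.25 for Rpl5 and -0.03 for Rpl37a and Rps18. With cyclic loess they were 0.01 for Rps23, 0.06 for Rps6, 0.04 for Rpl10, 0.17 for Rps20, -0.14 for Rpl10a and -0.12 for Rpl11. With equal totals Rplp1 was at 0.04 and Rps20 at 0.05, and with voom Rplp1 was at 0.04. Leaving out 1 library in turn, the values ran from -1.03 to 0.35 for Rps10 and from -0.78 to 0.24 for the region linked to Fau. They ran from -0.32 to 0.05 for Rplp2, from -0.34 to 0.08 for Rplp0 and from -0.22 to 0.07 for Rpl10. The values ran from -0.24 to 0.11 for Rpl41, from -0.18 to 0.17 for Rps20 and from -0.14 to 0.25 for Rpl22l1. The values ran from -0.45 to 0.55 for Rpl11 and from -0.15 to 0.33 for Rpl5. They ran from -0.45 to 0.03 for Rpl36a, from -0.12 to 0.12 for Rplp1 and from -0.05 to 0.13 for Rpl10a.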
